A study of Homo sapiens and Mus musculus with 19 samples.

Results

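The replication-dependent histone genes are the protein-coding genes of the histone clusters. They were chosen by symbol, as human H1-1 to H1-6 and the H2AC, H2BC, H3C and H4C series (or an older name beginning HIST1H to HIST4H), and as mouse Hist1h to Hist4h. The rule selected 71 human genes, of which 67 had an identifier in count tables of 58721 genes, and 67 mouse genes among 54446. Chromatin-associated RNA was sequenced from K562, a human leukaemia line, and from mouse embryonic stem cells (mESCs). The K562 libraries fell into 4 groups of 3: TET2 WT or TET2 KO cells, each with a lentiviral control hairpin (shControl) or a hairpin against MBD6 (shMBD6), and all were selected with puromycin. The KO line was obtained by the authors from another laboratory, and whether it was a single clone is not given in the sources used here. The mESCs were transfected with siControl or with siNsun2, with 3 libraries each, after feeder cells had been removed by passaging. TET2 is a dioxygenase that oxidizes 5-methylcytosine, MBD6 belongs to the methyl-CpG-binding-domain proteins and NSUN2 methylates cytosines in RNA.

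Core histones H2A, H2B, H3 and H4 form the nucleosome and the H1 linkers bind the DNA between nucleosomes. The clustered genes supply histones for newly replicated DNA, and their transcripts are made mainly in S phase. Their mRNAs are not polyadenylated. A stem-loop shortly after the stop codon is bound by SLBP, and cleavage just downstream forms the mRNA end. Some cluster genes also have transcripts that run past this site. The libraries were made from ribosome-depleted total RNA, so a poly(A) tail was not needed for a transcript to be counted.

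Of the 71 human genes, 55 lay on chromosome 6, 15 on chromosome 1 and 1 on chromosome 12. There were 6 H1, 17 H2A, 18 H2B, 15 H3 and 15 H4 genes. In mouse, 54 genes lay on chromosome 13, 10 on chromosome 3, 2 on chromosome 11 and 1 on chromosome 6, with 6 H1, 18 H2A, 18 H2B, 12 H3 and 13 H4 genes. Filtering on counts left 53 human and 63 mouse genes for testing. The 14 human genes in the tables that were not tested held at most 27 counts in any library, and H3C4, H2AC7 and H2AC16 were at 0 throughout. H3C4 and H2AC7 lie inside another gene on the same strand, where reads would have been set aside as ambiguous. The 4 untested mouse genes (Hist3h2a, Hist2h2aa1, Hist2h3c1 and Hist2h2bb) overlap a neighbour in the same way and held at most 1 count.

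The stem-loop is shown because the results below separate genes by where the annotated gene ends relative to it. It was found within 150 bases after the stop codon in 71 of 71 human genes and in the annotated transcripts of 46 of 67 mouse genes. The 16-base core is in capitals, with 5 flanking bases on each side in lower case, on the coding strand of hg38, and the core lies in the 3′ UTR. For human genes the sites are H1-2 at chr6:26055739-26055764 (minus strand), H2AC11 at chr6:27133510-27133535 (plus), H2AC20 at chr1:149887386-149887411 (plus), H2AC6 at chr6:26124664-26124689 (plus), H4C5 at chr6:26204996-26205021 (plus) and H4C8 at chr6:26285126-26285151 (minus).
H1-2: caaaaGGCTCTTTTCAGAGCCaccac
H2AC11: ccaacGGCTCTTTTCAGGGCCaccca
H2AC20: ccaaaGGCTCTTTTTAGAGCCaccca
H2AC6: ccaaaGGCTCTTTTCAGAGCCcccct
H4C5: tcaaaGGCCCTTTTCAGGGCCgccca
H4C8: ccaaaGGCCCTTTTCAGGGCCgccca
There were 10 different cores among the human genes. The core of H1-2 and H2AC6 was shared by 41 genes of the H1, H2A, H2B and H3 classes and by no H4 gene, and that of H4C5 and H4C8 by 10 genes, all H4. Mouse transcripts held 8 different cores, and the same pair of sequences was the most frequent, in 26 and 7 genes. The core of Hist2h2ac was identical to that of H2AC20. The mouse sites were read from GENCODE M21 transcripts.
Hist1h1c: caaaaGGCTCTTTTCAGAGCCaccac
Hist1h4d: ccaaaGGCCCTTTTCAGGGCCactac
Hist2h2ac: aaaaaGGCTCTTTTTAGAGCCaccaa

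Gene models differed at this end. In 53 human genes the model ended 0 to 18 bases past the core, and in the other 18 it ran on for 430 to 37155 bases (median 6722). H2AC6 and H4C8 belong to the longer class and H1-2, H2AC11, H2AC20 and H4C5 to the shorter one. Reads downstream of the stem-loop were therefore countable for the longer models and not for the shorter ones. Positions came from GENCODE v44, whereas the tables were counted with v29, and the models may differ between them. For H1-6, which v44 places inside the span of H2BC4, 81 to 349 counts per library were held. Counting over such a span would have set these aside. Whether the v29 model differs or only exons were counted is not given in the sources used here.

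The promoters of 66 human genes were matched to RefSeq windows on GRCh38.p14 that reach from 250 bases before the start to 50 bases after it. Searched on both strands, TATAAA was present in 44 of them (66.7%) against 12% of 27305 promoters, CCAAT in 56 (84.8% against 35.7%) and the octamer ATTTGCAT in 26 (39.4% against 1.8%). TATAAA is shown in capitals, on the coding strand, for 3 genes whose levels are described below: H2AC11 at chr6:27133000-27133029 (plus), H2AC20 at chr1:149886877-149886906 (plus) and H2BC8 at chr6:26216703-26216732 (minus).
H2AC11: cccaatagtgttTATAAAaagcgccgcctt
H2AC20: cctaggaaagctTATAAAggctttcctctt
H2BC8: gcatgaaaggccTATAAAaggagagactct
No TATAAA was present in the windows of H1-2, H1-5, H4C5 or H4C8.

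Gene counts per library ran from 52158403 to 102070223 in K562 and from 58078323 to 66832780 in mESCs. Levels are CPM, counts scaled to a common library size by TMM, and differences are log2 fold changes with a standard error (SE) from edgeR. Calls were made where the p adjusted over all tested genes was under 0.05. MBD6 was 43.3, 42.7 and 38.6 CPM in WT shControl and 31.0, 25.7 and 27.3 in WT shMBD6. It was 30.6, 30.8 and 29.4 in KO shControl and 30.6, 38.4 and 34.2 in the KO libraries labelled shMBD6, where it was not lower, so that this group is called by its label throughout. TET2 RNA, which does not check the genotype, was 121 ± 2.59 CPM in WT shControl and 129 ± 2.22 in KO shControl (SD, n = 3). Nsun2 fell from 132.8, 125.9 and 129.7 CPM to 98.8, 105.9 and 102.8 after siNsun2. Replicate 1 of the KO libraries labelled shMBD6 detected 24480 genes, against 26963 and 26930 in the other libraries of its group. Erythroid markers of K562 were expressed, with HBE1 and HBG2 listed at 0, and the 5 lymphoid or monocytic markers summed to 1.81 to 4.26 CPM. The mESC markers summed to 904 to 1073 CPM, with Sox2 listed at 0, and the 6 fibroblast markers to 27.1 to 34.9 CPM.

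Levels of different genes were divided by gene span, since the feature type used for counting is not given in the sources used here. Per kilobase of gene span, H2AC11 had the highest level of the histone genes counted in K562, at 106.8 ± 3.45 CPM per kb in WT shControl (SD, n = 3). Next were the linker histone genes H1-2 at 73.1 ± 1.85 and H1-4 at 54.3 ± 8.70 CPM per kb. H2BC8 (39.3 ± 7.42), H2BC17 (33.2 ± 5.01), H2BC12 (31.1 ± 3.80), H4C5 (30.9 ± 1.2) and H2AC13 (29.7 ± 3.00) followed. The first 3 genes did not overlap each other or the rest, whereas the libraries of these next 5 genes overlapped and their order was not resolved. The highest H3 gene, H3C10, reached 13.2 ± 1.2 CPM per kb. Divided by merged exon length, a choice added after seeing the data, H2AC11 was still first, but H2BC11 (98.5 ± 4.31 CPM per exon kb) and H2AC6 (83.4 ± 3.24) came before H1-2, and H2BC5 (39.6 ± 0.60) before H2BC8. Each of these 3 genes has a long model, such as 14972 bases with 1668 exonic bases for H2AC6. Without division by length, the 8 genes with the most counts held 66.5% of the level summed over the 67 human genes.

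In TET2 KO cells with the control hairpin, the histone genes were mostly lower than in WT, and the genes whose model ends at the stem-loop accounted for most of the fall. Of the 53 tested genes, 36 fell and 2 rose, so that 38 were called where 45.8% of all genes were (23.5% higher and 22.3% lower). The median log2 change was -0.86 beside -0.05 over all genes. H2A genes fell in 10 of 12 cases, H2B in 12 of 17, H4 in 6 of 11, H1 in 4 of 6 and H3 in 4 of 7. By gene model, 29 of 37 genes ending at the stem-loop fell and none rose, with a median of -1.01. Of the 16 that run past it, 7 fell and 2 rose, with a median of -0.10. Over the alternatives the medians ranged from -1.18 to -0.96 and from -0.29 to -0.07. The split by gene model was chosen after values were seen, and the difference between its classes was not tested.

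The linker histone gene H1-2 stood at 51.9, 53.9 and 54.4 CPM in WT shControl and at 22.3, 22.5 and 24.7 in KO shControl. Every KO library was below every WT library, with a log2 change of -1.21 ± 0.06 (SE, n = 3 and 3, adjusted p = 1.83e-17). H1-5, another linker histone gene, went from 9.69, 7.89 and 9.87 CPM to 2.51, 1.93 and 2.54. This fall of 1.97 ± 0.20 on the log2 scale (adjusted p = 3.03e-10) was, after that of H2AC4, the largest among genes with a mean of at least 1 CPM. H2AC4, an H2A gene, went from 3.93, 3.84 and 3.94 to 0.703, 1.12 and 1.03 CPM, a log2 change of -2.05 ± 0.31 (adjusted p = 1.05e-06). Next in size were H4C11 (-1.86), H3C7 (-1.81), H2AC17 (-1.79) and H2AC20 (-1.69). H2AC17 shares 83.8% of its span with H3C12 on the same strand and its value is uncertain, and 92.1% of the 50-base words of H4C11 occur elsewhere in the genome. H2AC11, the highest counted gene per kilobase of span, fell from 51.4, 54.6 and 51.9 CPM to 25.1, 24.1 and 27.9.

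H4C8, which encodes the same H4 class as the falling H4C5 but runs past its stem-loop, moved the other way. It rose from 32.1, 34.0 and 31.6 CPM in WT shControl to 53.05, 55.5 and 57.2 in KO shControl, with no overlap and a log2 change of 0.76 ± 0.06 (adjusted p = 6.83e-13). H4C5 fell from 13.2, 12.8 and 12.2 to 7.98, 6.25 and 6.79 CPM (-0.86 ± 0.13, adjusted p = 1.04e-06). The only other gene called higher was H2BC26 of the small cluster on chromosome 1, at 3.52, 2.57 and 2.72 against 5.76, 3.92 and 4.06 CPM, a log2 change of 0.65 ± 0.21. Its call (adjusted p = 0.0115) did not hold when libraries were scaled by total counts (log2 change 0.47, adjusted p = 0.0664) and was lost without KO shControl replicate 1 (adjusted p = 0.137) or WT shControl replicate 2 (0.0613). H2AC6, an H2A gene with a long model, was 145.0, 137.6 and 134.5 CPM in WT and 134.4, 134.4 and 138.0 in KO shControl, and the groups overlapped.

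**Figure D1:**
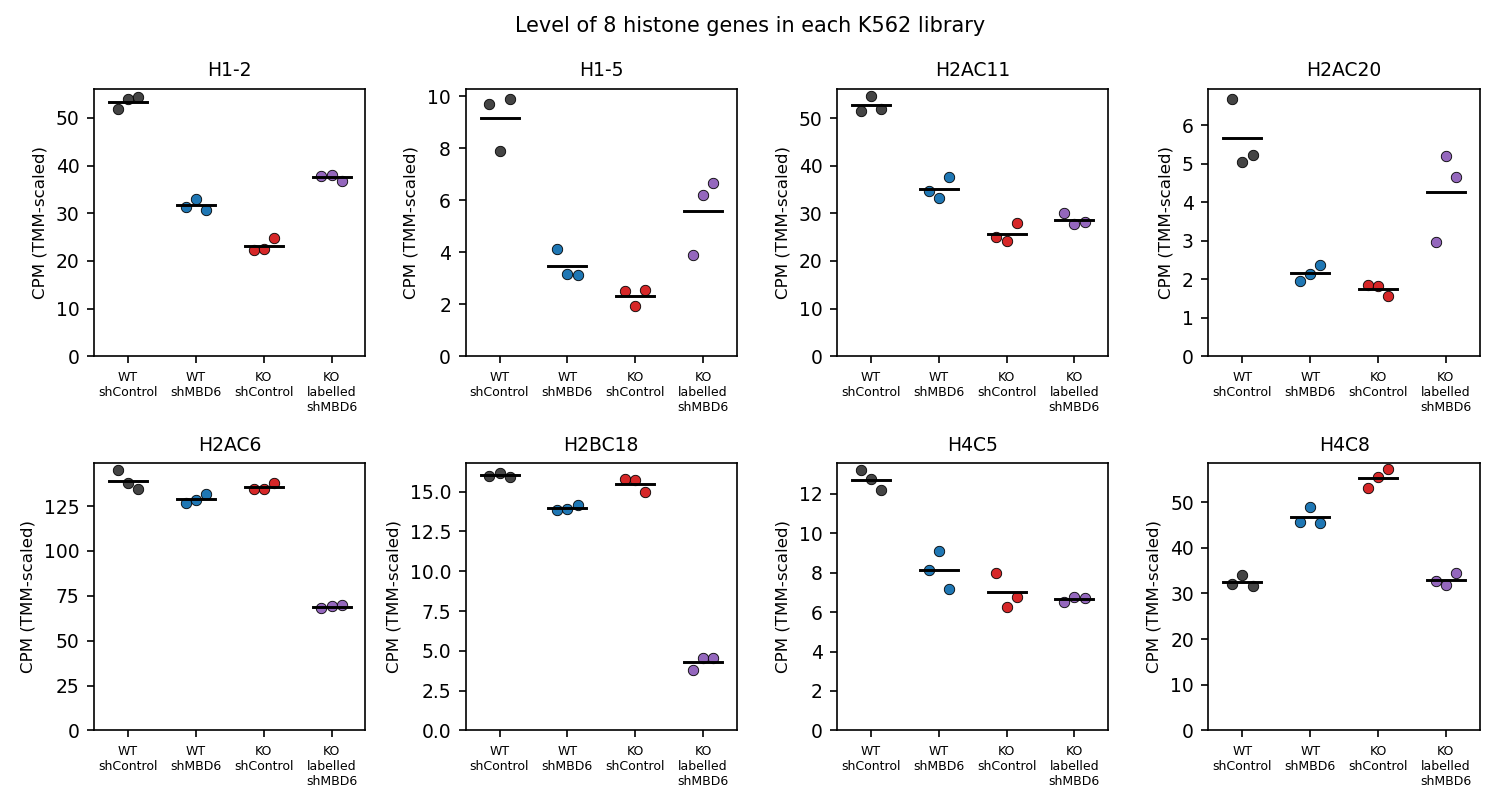
Level in CPM (y axis of each panel, from 0) of 8 histone genes in the 12 K562 libraries, grouped along the x axis; points are libraries and bars are group means (n = 3). H1-2, H1-5, H2AC11, H2AC20 and H4C5 are lower in every WT shMBD6 and KO shControl library than in WT shControl, H4C8 is higher in those groups, and H2AC6 and H2BC18 are lowest in the KO libraries labelled shMBD6.

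A pair of neighbouring genes at the start of the chromosome 6 cluster, H2AC1 (chr6:25723397-25726562, minus strand) and H2BC1 (chr6:25726777-25727345, plus strand), were nearly silent in both KO groups. Both are known as histone genes of the testis. H2AC1 held 35, 132 and 63 counts in WT shControl, 74, 47 and 70 in WT shMBD6, 1, 7 and 0 in KO shControl and 0, 0 and 6 in the KO libraries labelled shMBD6. H2BC1 held 65, 101 and 133 counts in WT shControl, 104, 78 and 104 in WT shMBD6, 7, 12 and 10 in KO shControl and 1, 4 and 0 in the fourth group. No KO library of either hairpin overlapped a WT library for these genes. They passed the count filter only through the WT groups, so these values are given here as a description with no test. Both genes are among the 53 tested, and the counts of calls and medians given for those 53 include them. Another testis gene, H1-6, was 2.29 ± 0.44 CPM in WT shControl and 2.41 ± 0.52 in KO shControl (SD, n = 3), and the groups overlapped. Of the small clusters, H2AC25 was 6.47 ± 1.26 and 7.72 ± 1.41 CPM in the same groups, again with overlap, and H3-4 and H4C16 held at most 10 and 5 counts in any library.

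With shMBD6 in TET2 WT cells, histone genes again fell far more often than they rose. Of 53 tested genes, 33 fell and only H4C8 rose, with 34 called where 42.5% of all genes were (17.7% higher and 24.7% lower). The median log2 change was -0.67 beside 0.10 over all genes. The comparison shares its WT shControl libraries with that of KO and WT. Genes ending at the stem-loop fell in 25 of 37 cases with a median of -0.76. Those running past it fell in 8 of 16, with H4C8 higher and a median of -0.29. H1-6 was also called higher with DESeq2 size factors (0.65), with total gene counts (0.64, adjusted p = 0.043) and with TMM on high-level genes (0.71). The last of these scalings also called H4C4 higher (0.60). By class, 4 of 6 H1, 10 of 12 H2A, 11 of 17 H2B, 2 of 7 H3 and 6 of 11 H4 genes fell.

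H2AC20, an H2A gene of the chromosome 1 cluster, went from 6.69, 5.05 and 5.24 CPM in WT shControl to 1.95, 2.13 and 2.37 in WT shMBD6. The groups did not overlap, with a log2 change of -1.39 ± 0.22 (adjusted p = 2.86e-06). H1-2 went to 31.3, 33.0 and 30.6 CPM (-0.76 ± 0.06, adjusted p = 4.45e-12), and H1-5 to 4.12, 3.16 and 3.14 (-1.39 ± 0.19, adjusted p = 2.8e-07). The largest fall was again that of H2AC4, to 0.861, 1.36 and 1.73 CPM (-1.57 ± 0.30, adjusted p = 5.17e-05), followed by H2AC17 (-1.50). H2AC13 fell by 1.25 and the H3 gene H3C10 fell by 1.2 on the log2 scale. H3C10 was 17.7, 14.8 and 16.8 CPM in WT shControl and 7.14, 6.95 and 7.30 in WT shMBD6, well apart. H4C8 rose to 45.7, 49 and 45.4 CPM (0.52 ± 0.06, adjusted p = 7.36e-09). H2AC6 was 126.7, 128.5 and 131.6 CPM in WT shMBD6, below every WT shControl library, but its small change (-0.11 ± 0.04, adjusted p = 0.0168) turned to 0.001 with DESeq2 size factors and to 0.057 with TMM on high-level genes, so that its direction was not resolved. Its call was also lost without WT shControl replicate 1 (adjusted p = 0.0965) or WT shMBD6 replicate 1 (0.0621).

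Summed over their 49 members in the tables, the genes ending at the stem-loop were 373.7, 328.4 and 334.0 CPM in WT shControl and 215.8, 205.6 and 207.0 in WT shMBD6. They were 180.3, 171.0 and 176.0 in KO shControl and 230.7, 222.0 and 217.7 in the KO libraries labelled shMBD6. WT shControl was highest, KO shControl lowest, and no group overlapped another under TMM. With total gene counts, WT shMBD6 (223.6 to 238.0) and the fourth group (213.1 to 229.6) overlapped, while WT shControl remained highest and KO shControl lowest. The 18 genes running past the stem-loop summed to 529 ± 13.7 CPM in WT shControl, 467 ± 5.83 in WT shMBD6, 472 ± 3.64 in KO shControl and 318 ± 5.20 in the KO libraries labelled shMBD6 (SD, n = 3). Relative to WT shControl these were ratios of 0.883, 0.891 and 0.601, against 0.607, 0.509 and 0.647 for the genes ending at the stem-loop. The order of the groups thus differed between the classes: the KO libraries labelled shMBD6 were lowest for the longer models and KO shControl for the shorter ones. In sums over classes, H3 fell from 28.3 ± 2.04 to 12.9 ± 0.74 CPM between WT and KO shControl and H1 from 113 ± 7.96 to 51.6 ± 0.97, while H4, to which H4C8 contributes most, was 76.9 ± 4.82 and 81.1 ± 0.65.

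**Figure D2:**
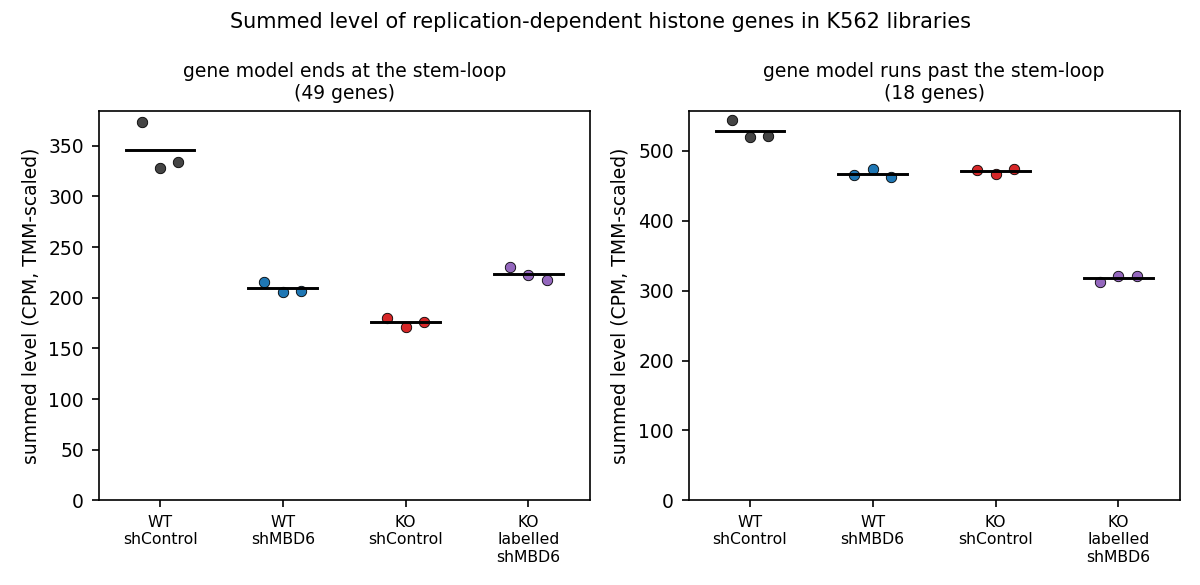
Summed level in CPM (y axes, from 0) of the histone genes whose model ends at the stem-loop (49 genes, left) and runs past it (18 genes, right) in each K562 library; points are libraries and bars are group means (n = 3). The left panel is lowest in KO shControl (mean 176 CPM) and the right panel in the KO libraries labelled shMBD6 (mean 318 CPM).

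Within TET2 KO cells, histone genes were called about as often as all genes between the libraries labelled shMBD6 and shControl, in both directions. Of 53 tested genes 10 rose and 9 fell, 19 in all, where 36.4% of all genes were called (15.7% higher and 20.6% lower), and the median was 0.06 beside -0.07. The 10 genes that rose had models ending at the stem-loop. With total gene counts H2BC6, which runs past it, was also called higher (0.52, adjusted p = 0.016), and 1 such gene was called higher with no filter, the stricter filter, the 2-group fit and without replicate 2 of the labelled libraries. Of the 9 that fell, 8 had models running past it and the other was H2BC1. That gene was nearly silent in both KO groups and passed the count filter only through the WT groups, so its call is not relied on. H1 genes rose in 4 of 6 cases and H2A in 5 of 12. Of 17 H2B genes 7 fell and none rose under TMM, whereas H2BC6 and H2BC13 (0.72, adjusted p = 0.0361) were called higher with total gene counts. Without replicate 1 of the KO libraries labelled shMBD6, which detected fewer genes, the median was -0.04.

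H2AC20 rose from 1.85, 1.83 and 1.57 CPM in KO shControl to 2.97, 5.20 and 4.66 (1.29 ± 0.22, adjusted p = 1.53e-05). H1-5 rose to 3.898, 6.20 and 6.66 CPM (1.26 ± 0.20, adjusted p = 3.26e-06) and H1-4 from 21.1, 20.0 and 19.8 to 37.7, 35.9 and 36.0 (0.84 ± 0.08, adjusted p = 2.35e-10). For these genes the groups did not overlap, and in H2AC20 and H1-5 replicate 1 was the lowest of its group. H2AC4 (0.99), H4C11 (0.98) and H2AC21 (0.92) were also among the largest rises, and each lost its call without 1 of several libraries (adjusted p = 0.0678 for H2AC4 without KO shControl replicate 1 and 0.0644 without replicate 1 of the other group). H4C11 gave 0.0819 without KO shControl replicate 2 and 0.0543 without replicate 3. H2AC21 gave 0.0595 and 0.0986 without KO shControl replicates 1 and 3, and 0.0592 without replicate 1 of the libraries labelled shMBD6. H1-3 and H2AC13 also lost their calls without single libraries, H1-3 without KO shControl replicate 3 (0.0741) or replicate 1 of the labelled libraries (0.0838), and H2AC13 without replicate 2 (0.0816) or 3 (0.0549) of the latter.

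Of the 16 genes with long models 8 fell, 2 of them by at least 2-fold, and the median was -0.34. H2BC18, an H2B gene of chromosome 1 with a model of 29685 bases, went from 15.8, 15.7 and 15.0 CPM to 3.79, 4.52 and 4.57, a log2 change of -1.85 ± 0.11 (adjusted p = 1.11e-15). Another gene on its strand covers 24.8% of this span, and 70.6% of its 50-base words occur elsewhere. H2BC5 went from 36.1, 36.3 and 33.1 to 11.7, 21.5 and 14.4 CPM (-1.15 ± 0.15, adjusted p = 4.28e-05), with no overlap but a wide spread. H2AC6 went to 68.0, 69.1 and 70.1 CPM, a fall of 0.97 ± 0.04 on the log2 scale (adjusted p = 3.19e-20) with replicates close together. H4C8 fell by 0.74 to 32.8, 31.8 and 34.5 CPM, which overlapped its WT shControl libraries, and H2BC21 (-0.58) and H2BC4 (-0.35) fell less.

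**Figure D3:**
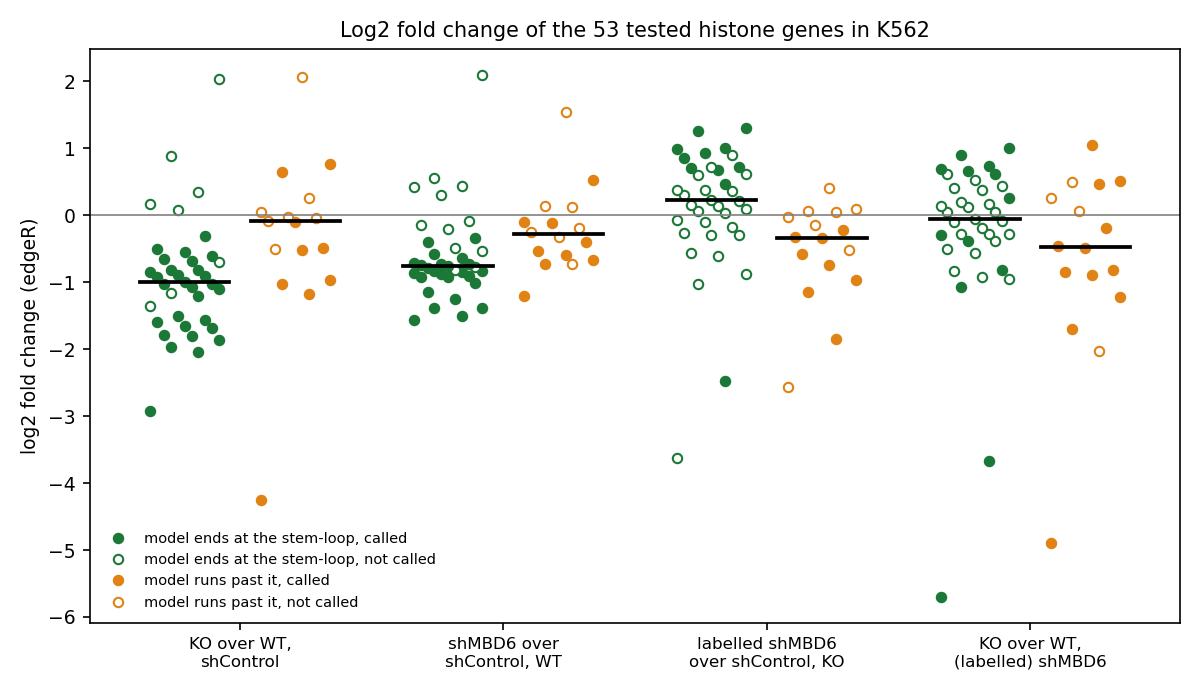
Log2 fold change (y axis, edgeR) of the 53 tested histone genes in 4 K562 comparisons (x axis), for models ending at the stem-loop (green) and running past it (orange); filled points were called at an adjusted p under 0.05 and bars are medians. The green medians are -1.01, -0.76, 0.23 and -0.05 from left to right, and the orange medians -0.10, -0.29, -0.34 and -0.48.

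Between TET2 KO and WT cells carrying shMBD6 or labelled so, 10 genes rose and 15 fell, 25 of 53, where 58.6% of all genes were called (30.1% higher and 28.5% lower). The share called was below that background, and with scaling by total counts 6 rose and 18 fell. The median was -0.10. Of the 37 genes ending at the stem-loop 7 rose and 6 fell, and of the 16 running past it 3 rose and 9 fell. H2BC26 (1.04), H2AC20 (0.99), H1-3 (0.90), H2AC8 (0.73), H1-5 (0.68) and H1-4 (0.66) rose most among genes with a mean of at least 1 CPM, and H2BC18 (-1.70), H2BC5 (-1.23), H1-6 (-1.07), H2AC6 (-0.90), H2BC4 (-0.85) and H2BC21 (-0.83) fell most among them. The groups overlapped for H2AC8 and H1-5. H1-2 was higher in KO by 0.25 (adjusted p = 0.000952), a call that was lost under total counts (0.10, adjusted p = 0.165) and DESeq2 size factors (0.13, adjusted p = 0.0765).

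The effect of the shMBD6 label differed between genotypes for 34 of the 53 genes, tested as an interaction, where 49.4% of all genes were called. It was more positive in KO for 26 genes (23.9% of all genes) and more negative for 8 (25.5%), with a median of 0.62 beside -0.19. Among genes ending at the stem-loop, 24 of 37 were more positive and 3 more negative (median 0.94), and among those running past it 2 and 5 of 16 (median 0.11, which ranged from -0.05 to 0.17 over the alternatives and so had no fixed sign). Among genes with a mean of at least 1 CPM, the largest differences were those of H2AC20 (2.69 ± 0.31), H1-5 (2.65 ± 0.27) and H2AC4 (2.57 ± 0.43) in the positive direction and H2BC18 (-1.65 ± 0.15), H2BC5 (-1.27 ± 0.21) and H4C8 (-1.26 ± 0.08) in the negative one. Of 12 genes under this level 2 were more positive and 3 more negative, and all of these rest on few counts. All values here rest on libraries in which MBD6 RNA itself was not lower in the KO arm.

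Other genes of the histone supply pathway also differed between these groups. SLBP, which binds the stem-loop, was lower in KO than WT with shControl by -0.33 ± 0.05 on the log2 scale (adjusted p = 3.63e-06), lower with shMBD6 in WT (-0.46 ± 0.05) and higher in the KO libraries labelled shMBD6 (0.48 ± 0.05). NPAT, the co-activator of histone gene transcription, changed by -0.18, -0.23 and 0.08 in the same comparisons, the last not called (adjusted p = 0.0919). CCNE1, which encodes the cyclin E1 that acts through NPAT, changed by -1.05, -0.93 and 0.69. Of 25 genes for histone mRNA transcription and processing, 13 fell and 4 rose in KO over WT with shControl, 23 fell and 1 rose with shMBD6 in WT, and 15 rose and 5 fell in the KO libraries labelled shMBD6. Their medians were -0.20, -0.48 and 0.29. Over all genes 23.5%, 17.7% and 15.7% were called higher and 22.3%, 24.7% and 20.6% lower in these comparisons.

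S-phase genes did likewise: of 24, 14 fell and 2 rose in KO over WT, 19 fell with shMBD6 in WT and 19 rose and 2 fell in the third comparison, with medians of -0.26, -0.48 and 0.40. MCM2, a subunit of the replicative helicase, changed by -0.53, -0.69 and 0.76. Of 11 replication-independent histone genes, 7 fell in KO over WT (median -0.31), 8 fell with shMBD6 in WT and 6 rose and 1 fell in the third. Of 16 histone chaperone genes, 7 fell and 3 rose, 12 fell and 1 rose, and 8 rose and 4 fell. Between KO and WT cells with the shMBD6 label, 22 histone mRNA genes, 20 S-phase genes and 11 chaperone genes rose and none fell. Their medians were 0.51, 0.50 and 0.34, and 8 replication-independent histone genes rose and 1 fell. Over all genes 30.1% were higher and 28.5% lower. The replication-dependent histone genes had a median of -0.10 and differed by class. H1 genes rose in 4 cases and fell in 1 (median 0.45), and H2A genes in 3 and 3 (0.25). H2B genes rose in 2 and fell in 8 (-0.20), H3 in 0 and 1 (-0.51) and H4 in 1 and 2 (-0.29). The share of cells in S phase was not measured, and its part in the histone values was not tested. In these bulk samples fewer cells transcribing a gene and less RNA per cell cannot be told apart.

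Erythroid markers of K562 moved as well, from 456 to 472 CPM summed in WT shControl to 260 to 280 in WT shMBD6, 183 to 197 in KO shControl and 268 to 278 in the KO libraries labelled shMBD6. Of the 6 tested, 6 fell in KO over WT, 4 fell with shMBD6 in WT and 6 rose in the third comparison. Their part in the histone values was not tested. Of 120 tested protein-coding genes that are short and intronless like the histone genes, 27 rose and 6 fell in KO over WT with shControl (median 0.25). With shMBD6 in WT 15 rose and 19 fell (-0.12), and in the KO libraries labelled shMBD6 12 rose and 24 fell (-0.08). In KO over WT with that label 35 rose and 20 fell (0.19). Over all genes 23.5%, 17.7%, 15.7% and 30.1% were called higher and 22.3%, 24.7%, 20.6% and 28.5% lower. The part of gene shape in the histone values was not tested.

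In mESCs, histone genes that were called after siNsun2 were lower, by less than 2-fold. Of 63 tested genes 32 fell and none rose at an adjusted p under 0.05, where 50.2% of all genes were called (25.8% higher and 24.3% lower). The share called was thus close to that of all genes, but the calls lay in 1 direction. The median log2 change was -0.38 beside 0.14 over all genes, and single genes ranged from -1.34 to 0.12. H1 genes fell in 5 of 6 cases, H2A in 7 of 16, H2B in 4 of 17, H3 in 7 of 11 and H4 in 9 of 13. Summed over the 67 genes the level was 594.5, 574.4 and 562.6 CPM in siControl and 466.4, 445.4 and 469.1 in siNsun2, with no overlap and a ratio of 0.798.

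The size of this fall depended on scaling. With total gene counts the ratio of the sums was 0.904, the median of all genes rose to 0.32 and that of the histone genes to -0.20, and 13 fell while Hist1h2be rose (0.25, adjusted p = 0.00946). With TMM on high-level genes 10 fell and Hist1h2be rose, and the medians were 0.34 and -0.17. Relative to the median of all genes the histone median was lower under each of these scalings. The median of all genes also depended on the count filter. It was 0.295 with no filter and 0.018 with the stricter one, beside -0.389 and -0.312 for the histone genes. Between 28.9% and 29.9% of records lay outside genes after siNsun2, against 19.6% to 20.2% in siControl, and their part in this difference was not tested.

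By counted reads, linker histone genes had the highest levels per kilobase in mESCs. Hist1h1a was 59.8 ± 2.60 CPM per kb in siControl, Hist1h1b 56.0 ± 1.97 and Hist1h1c 45.1 ± 2.23 (SD, n = 3), and the libraries of these 3 genes did not overlap each other. Hist1h2bn (28.4 ± 2.58), Hist1h4d (28.3 ± 0.97), Hist1h2bm (23.6 ± 2.11), Hist1h2bg (23.4 ± 1.68) and Hist1h4a (22.4 ± 1.32) followed. Hist1h2bn overlapped Hist1h4d and the last 3 overlapped each other, while every library of Hist1h4d lay above those of the last 3. The highest H2A gene was Hist2h2ac at 21.2 ± 1.21 and the highest H3 gene Hist1h3e at 14.3 ± 1.15 CPM per kb. Without division by length, the 8 genes with the most counts held 52.0% of the summed level.

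Hist1h1a went from 46.5, 43.1 and 43.3 CPM to 34.4, 32.5 and 32.8, a log2 change of -0.41 ± 0.05 (adjusted p = 1.11e-11) with no overlap. Hist1h1c went from 72.8, 71.9 and 66.4 to 55.3, 51.6 and 59.3 CPM (-0.34 ± 0.04, adjusted p = 2.3e-11). Hist1h4d, an H4 gene, went from 31.0, 32.2 and 33.2 to 25.2, 23.8 and 24.4 CPM (-0.40 ± 0.06, adjusted p = 7.46e-09). These 3 genes also kept their calls with total gene counts, at -0.23, -0.16 and -0.22. Hist1h1b (-0.24 ± 0.05, adjusted p = 3.05e-05) did not, at -0.06 (adjusted p = 0.314).

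The largest falls were those of Hist1h4k (-0.62 ± 0.15), Hist1h2ac (-0.57 ± 0.15), Hist1h3c (-0.56 ± 0.13), Hist2h3b (-0.54 ± 0.17), Hist1h2bb (-0.54 ± 0.11) and Hist1h3d (-0.51 ± 0.10), with adjusted p from 1.08e-05 to 0.00457. Hist1h4k was 5.66, 4.78 and 5.52 CPM in siControl and 4.05, 3.36 and 2.96 in siNsun2, and Hist1h3c 7.07, 5.54 and 6.23 against 4.16, 4.05 and 4.56. The groups did not overlap for either. With total gene counts Hist2h3b lost its call (-0.36, adjusted p = 0.0685) and the other 5 kept theirs. Genes of the small clusters and the testis genes were not called: Hist4h4 was 14.9 ± 0.54 and 13.3 ± 1.35 CPM with overlap, and Hist1h1t (20, 17 and 32 counts against 7, 12 and 11), Hist1h2ba, Hist1h2aa and Hist3h2ba held at most 36 counts in a library.

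**Figure D4:**
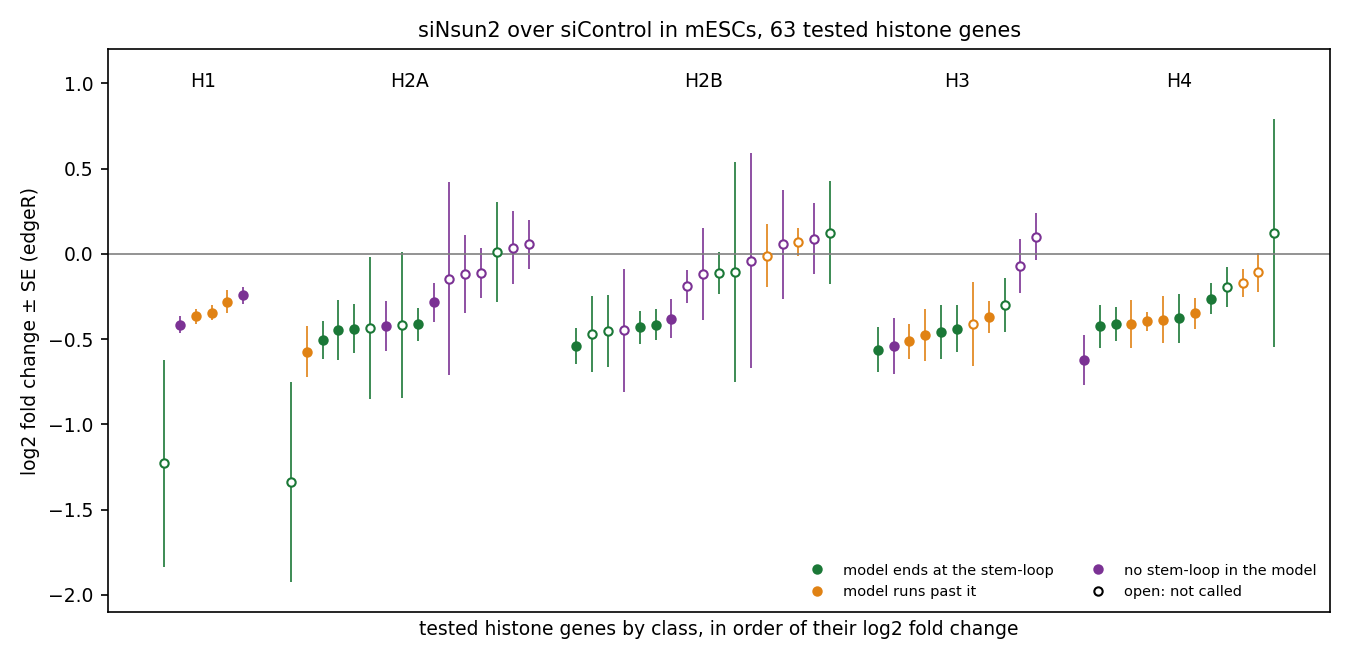
Log2 fold change with its SE (y axis, edgeR) of the 63 tested mouse histone genes after siNsun2, by class and in order of change along the x axis; filled points were called at an adjusted p under 0.05 and colours give where the gene model ends. All filled points lie below 0, while open points lie on both sides of it.

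Gene models had another shape in mouse, where 28 end within 185 bases of the stem-loop, 18 run past it by 330 to 4884 bases and 21 hold no stem-loop in the annotated transcript. Of the tested genes 14 of 27, 11 of 16 and 7 of 20 fell, with medians of -0.43, -0.37 and -0.13, the last of which turned to 0.07 with TMM on high-level genes. The models without a stem-loop mostly stop at or near the stop codon, and many share sequence with other members. Hist1h2bl, Hist1h2an, Hist1h3i, Hist1h3h and Hist1h2ai, chosen after their values were seen, have 82.8% to 93.9% of their 50-base words in transcripts of other genes and log2 changes from -0.11 to 0.10. Hist1h4k and Hist2h3b also lack a stem-loop in the model and share 71.5% and 79.7% of their words, but had log2 changes of -0.62 and -0.54. Reads with several alignments were not counted, and such genes rest on their few unshared stretches. Among genes with at least 50% of words found elsewhere 10 of 29 fell, and among the others 22 of 34, with medians of -0.38 and -0.37. Over all genes 24.3% were called lower.

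In human, 6 genes (H2AC18, H2AC19, H3C14, H3C15, H4C14 and H4C15) had every 50-base word elsewhere in the genome and 30 had none. Of the 8 tested genes with at least 50% of words elsewhere, 5 fell in KO over WT with shControl and 5 with shMBD6 in WT, with medians of -0.86 and -0.78. In the 45 others 31 and 28 fell, with medians of -0.86 and -0.60. Over all genes 22.3% and 24.7% were called lower in these comparisons.

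Pathway genes fell in mESCs too, where 25.8% of all genes were called higher and 24.3% lower. Of 25 genes for histone mRNA transcription and processing 21 fell and none rose (median -0.24), Slbp by 0.37 ± 0.05 and Npat by 0.39 ± 0.03 on the log2 scale. Of 23 tested S-phase genes 21 fell (median -0.22), of 11 replication-independent histone genes 9 (median -0.22) and of 16 chaperone genes 12 fell and 1 rose (median -0.25). Short intronless genes outside the histone lists had a median of -0.01 over 220 tested, with 15 higher and 19 lower. The mESC markers fell from 1042 to 1073 CPM to 904 to 923, and the fibroblast markers from 32.7 to 34.9 to 27.1 to 29.5, and their part in the histone values was not tested.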

How the data were processed

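Chromatin-associated RNA was measured in 12 K562 and 6 mESC libraries; a Pspc1 WT mESC library was not used. Per the labels and the study's methods, the authors trimmed reads with Trimmomatic 0.39, aligned them with HISAT2 2.2.1 to hg38 or mm10 and counted them per GENCODE gene (v29 or M19) with HTSeq 0.12.4; featureCounts is also named for caRNA. The deposited values are raw counts per gene. The tables hold 0 lines for spike-in RNA, so every value is relative to the other genes of a library. Summary lines without a gene were dropped (reads outside genes were 13.1% to 16.0% of records in K562 and 19.6% to 29.9% in mESCs). Reads with several alignments, and those in same-strand overlaps, were set aside by the authors' counting, so near-identical copies are undercounted. Depth sets the precision of low genes, and intervals cover counting and replicate spread only.

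Counts were fitted over the whole table with edgeR 4.0.16 (robust quasi-likelihood, TMM, filterByExpr at its minimum of 10 counts, Benjamini-Hochberg; limma 3.58.1, R 4.3.3): 26023 genes in the 4 K562 groups, which share 1 estimate of the spread, and 27603 genes in mESCs. DESeq2 1.42.0, other scalings and filters, a replicate block and the omission of each library were alternatives, and the fit was tested on simulated data. Every replicate pair differed by more than sampling noise. The labels do not say that replicates are separate cultures, so p-values measure the spread between these libraries. Stem-loops, 50-base words and promoter letters were read from hg38, GENCODE M21 transcripts and RefSeq promoters. Of 71 human members 4 (H2AC18, H2AC19, H3C2 and H3C3) had no match in the tables and are not analysed here.

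Genes named are the 8 highest per kb and the highest of each class, up to 6 called genes in each direction per comparison with a mean of at least 1 CPM (3 for the interaction), the testis and small-cluster members and the targeted genes; others named were chosen after their values were seen. Members and lists were chosen with earlier results of these data known, and the split by gene model (limit of 250 bases past the stem-loop) after values were seen.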

Additional observations from a re-analysis of the deposited data

Results flagged for a closer look

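For 6 histone genes the difference between shMBD6 and shControl was not the same in TET2 WT and TET2 KO cells, by the interaction contrast of the edgeR fit, and these were the 3 largest in each direction among genes with a mean of at least 1 CPM. The difference of log2 changes (KO minus WT) was 2.69 for H2AC20 (adjusted p = 7.57e-09), 2.65 for H1-5 (6.43e-10) and 2.57 for H2AC4 (5.68e-06). Each of these was lower in WT shMBD6 than in WT shControl and higher in the KO libraries labelled shMBD6 than in KO shControl. The difference was -1.65 for H2BC18 (adjusted p = 1.82e-11), -1.27 for H2BC5 (0.000208) and -1.26 for H4C8 (1.84e-14). H4C8 rose in WT and fell in KO, whereas H2BC18 and H2BC5 fell in KO (-1.85 and -1.15) and were not called in WT (-0.20 and 0.13). MBD6 RNA was not lower in the KO libraries labelled shMBD6, so that these contrasts compare labels.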

How the results depend on the processing

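Counts of called histone genes stayed within 1.5 times of the reported ones in the K562 comparisons under other scalings, filters, DESeq2 and the 2-group fits. With a log2 change of at least 1 also required, they fell to 20 (KO over WT, shControl), 8 (shMBD6 in WT), 5 (KO, labelled shMBD6), 7 (KO over WT, labelled shMBD6) and 0 (mESCs). These counts are out of 53 tested histone genes in K562 and 63 in mESCs. Over all genes 4605, 2843, 2354 and 7002 of 26023 met the same rule in K562, and 2313 of 27603 in mESCs. The mESC count of 32 fell to 14 with total gene counts and to 11 with TMM on high-level genes, of which 13 and 10 were among the 32. The change of H2AC6 with shMBD6 in WT reversed from -0.11 to 0.001 with DESeq2 size factors and with DESeq2, and to 0.057 with TMM on high-level genes. Leaving out 1 library at a time gave 32 to 36 (KO over WT, shControl), 26 to 31 (shMBD6 in WT), 17 to 20 (KO, labelled shMBD6), 21 to 26 (KO over WT, labelled shMBD6), 30 to 34 (interaction) and 27 to 33 (mESCs). Comparisons are now listed as KO over WT with shControl, shMBD6 in WT, KO labelled shMBD6, KO over WT labelled shMBD6, interaction and mESCs. In that order, the median of all genes was -0.05, 0.10, -0.07, -0.03, -0.19 and 0.14. With total counts it was -0.23, 0.19, 0.04, -0.18, -0.17 and 0.32. With no filter it was -0.017, 0.4, 0.0, -0.55, -0.616 and 0.295. The stricter filter gave -0.025, -0.009, -0.018, 0.067, -0.032 and 0.018.

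Replicate numbers did not pair the libraries, by each library's deviations of log2 CPM from its group mean. Between groups these deviations correlated at -0.017 to 0.025 for same-numbered libraries and at -0.030 to 0.032 for the others. With the replicate block the counts were 37, 33, 19, 25, 34 and 32 in that order. Of the single named genes, 2221 values were unchanged in direction and call, 96 lost and 37 gained a call, 3 reversed and 80 uncalled values moved. Depth limits genes under 1 CPM, of which 4 of 12 were called in KO over WT with shControl.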
